A study of Mus musculus with 62 samples.

Results

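H3K27ac was measured by CUT&Tag in haematopoietic stem and progenitor cells (HSPCs) of Daxx-KO and WT mice 3 weeks post induction (w.p.i.), and every autosomal site listed for this comparison was taken, 101434 of the 1987591 sites in the 15 tables of the series. Direction was read from the libraries themselves. A site counts as gained where the lower of the Daxx-KO values exceeded the higher of the WT values, and as lost in the reverse case. By this rule 39767 sites were gained, 39.2% of those listed, and 59195 were lost, 58.4%, while the genotypes overlapped at 2472.

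The 2 Daxx-KO libraries (Daxx F/F) and the 2 WT libraries (Daxx +/+) came from 4 C57BL/6 mice, 1 library per mouse, and the labels give Cre +/- for both genotypes, so the controls carried the recombinase too. The Cre line of these mice is not named in the labels or in the CUT&Tag methods. Elsewhere the study used both Mx1-Cre, switched on with pI:pC, and Rosa26CreERT2, switched on with tamoxifen, and neither line acts in blood cells only. Lineage-negative, c-Kit-positive cells were enriched from bone marrow with magnetic beads, and nuclei were tagged with an antibody-guided transposase. The mixture holds stem cells and committed progenitors of several lineages, so in these bulk libraries fewer cells of one type and less acetylation per cell cannot be told apart.

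Acetylation of lysine 27 on histone H3 is laid down mainly by the acetyltransferases p300 and CBP at active enhancers and promoters, where it opposes Polycomb methylation of the same residue. Daxx is a chaperone that deposits the histone variant H3.3 with Atrx, chiefly at repeats and other heterochromatin, and is best known for silencing there. In HSPCs, H3K27ac marks the enhancers of lineage regulators such as Spi1 (Pu.1), the GATA factors and the C/EBP factors.

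The sequences below belong to sites to which the results return, 3 gained and 4 lost. They were read from GRCm38 (mm10), with the Cd34 and Rhag promoters credited to RefSeq (GRCm38.p6, 250 bases before to 50 after the start of the gene) and the others being the central 300 bases of the site. Capitals mark matches to any of 12 short transcription-factor words, which are spelled out where motifs are described. A sequence in lower case throughout held none of them. The first 3 lie in sites with more H3K27ac in Daxx-KO HSPCs.
Cd34 promoter (chr1:194938571-194938870, plus strand): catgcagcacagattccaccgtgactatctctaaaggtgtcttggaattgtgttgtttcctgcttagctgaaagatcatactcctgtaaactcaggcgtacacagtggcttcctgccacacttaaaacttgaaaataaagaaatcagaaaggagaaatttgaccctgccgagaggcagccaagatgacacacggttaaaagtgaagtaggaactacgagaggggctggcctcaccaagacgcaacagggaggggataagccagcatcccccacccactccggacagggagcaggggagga
Elane promoter site (chr10:79884526-79884825, plus strand): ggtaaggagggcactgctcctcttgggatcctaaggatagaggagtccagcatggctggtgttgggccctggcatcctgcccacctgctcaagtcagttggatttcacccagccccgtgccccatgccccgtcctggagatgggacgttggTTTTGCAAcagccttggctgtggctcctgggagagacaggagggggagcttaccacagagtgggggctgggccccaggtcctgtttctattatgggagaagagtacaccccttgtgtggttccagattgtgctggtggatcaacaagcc
Fbp1 promoter site (chr13:62887151-62887450, plus strand): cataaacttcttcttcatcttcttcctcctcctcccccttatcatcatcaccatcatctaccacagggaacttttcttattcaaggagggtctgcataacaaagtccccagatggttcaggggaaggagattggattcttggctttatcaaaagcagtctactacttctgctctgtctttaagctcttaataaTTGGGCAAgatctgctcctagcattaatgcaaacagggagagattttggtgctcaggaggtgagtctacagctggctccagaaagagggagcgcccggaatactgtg
The last 4 lie in sites with less.
Rhag promoter (chr17:40810899-40811198, plus strand): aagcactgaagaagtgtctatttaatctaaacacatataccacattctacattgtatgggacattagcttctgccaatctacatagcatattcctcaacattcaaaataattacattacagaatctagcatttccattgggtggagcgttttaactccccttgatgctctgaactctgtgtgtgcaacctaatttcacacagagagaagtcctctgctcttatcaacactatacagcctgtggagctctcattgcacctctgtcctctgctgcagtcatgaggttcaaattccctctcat
strongest distal site of the Myc stretch (chr15:62122376-62122675, plus strand): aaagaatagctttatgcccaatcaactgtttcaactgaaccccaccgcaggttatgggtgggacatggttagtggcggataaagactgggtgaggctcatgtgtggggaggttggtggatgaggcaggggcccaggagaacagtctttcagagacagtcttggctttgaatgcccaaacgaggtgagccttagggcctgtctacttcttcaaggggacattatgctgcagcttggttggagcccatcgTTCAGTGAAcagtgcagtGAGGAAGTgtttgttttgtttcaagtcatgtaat
distal site near Ctsb (chr14:63103651-63103950, plus strand): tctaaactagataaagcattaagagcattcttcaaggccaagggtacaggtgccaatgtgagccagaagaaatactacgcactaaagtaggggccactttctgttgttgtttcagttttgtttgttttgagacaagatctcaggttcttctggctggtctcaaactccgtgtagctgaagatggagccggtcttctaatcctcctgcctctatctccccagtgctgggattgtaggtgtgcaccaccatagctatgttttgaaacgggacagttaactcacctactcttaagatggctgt
distal site near Zbtb46 (chr2:181421126-181421425, plus strand): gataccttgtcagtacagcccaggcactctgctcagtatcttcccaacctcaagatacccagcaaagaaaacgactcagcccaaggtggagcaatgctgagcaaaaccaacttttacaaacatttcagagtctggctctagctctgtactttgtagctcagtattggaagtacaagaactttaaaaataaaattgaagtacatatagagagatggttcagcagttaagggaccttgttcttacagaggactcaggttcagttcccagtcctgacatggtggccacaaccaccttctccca

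The libraries were shallow. The mean number of reads per 600-bp window was 1.33 and 2.26 in Daxx-KO replicates 1 and 2 and 2.07 and 1.48 in WT, and 1629265 to 2530516 reads of each library fell in the listed sites. Values are normalized counts, the reads of a site divided by a constant of the library, so that 1 read was worth 0.85 to 1.10. The libraries also differed in base composition. Sites of at least 50% GC held 24.1% and 15.5% of the Daxx-KO counts and 25.1% and 34.1% of the WT counts, so that the first replicates of both genotypes were alike and the second replicates stood apart on opposite sides. At Daxx (ENSMUSG00000002307.16), WT HSPCs had 65.6 and 105 at the promoter site and Daxx-KO HSPCs 24.2 and 13.6. The knockout removes exons of Daxx, and this site covers a start of the gene and has its centre in an exon. Whether it reaches the deleted exons was not examined, so missing DNA and lost acetylation cannot be told apart there. Most listed sites were losses, so this is only a weak check of the labels. Listed are only sites that passed the authors' test on these same libraries, so no test was repeated on them, and at a single site an exact permutation of 2 against 2 libraries cannot give a p below 0.333. Intervals of folds pool the reads of both libraries of a genotype, and intervals of shares count sites. Both cover counting error only and leave out the spread between mice. As PCR reads are not independent molecules, the fold intervals are too narrow even for counting error.

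More distal sites than promoter sites changed, and losses outnumbered gains at both. Of the gains 4765 lay within 1 kb of a transcription start site (TSS) and 35002 were distal, and of the losses 10935 and 48260. Promoter sites made up 11.98% (95% Wilson interval 11.7 to 12.3) of the gains and 18.5% (18.2 to 18.8) of the losses. Gains lay farther out: 41.3% of them were distal and intergenic, against 32.2% of the losses, and 19.2% lay more than 100 kb from the TSS of a protein-coding gene, against 11.7%. Introns held like shares, 43.2% of gains and 45.01% of losses. Under the median-ratio scaling described below the promoter shares came together, at 13.2% of gains and 13.9% of losses.

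At the typical gained distal site, H3K27ac was low in WT and moderate in Daxx-KO. WT medians were 2.15 and 2.21 normalized counts, and Daxx-KO medians 12.6 and 25.5. Lost distal sites showed the mirror image, with medians of 1.94 and 0.85 in Daxx-KO against 16.1 and 13.2. Promoter sites stood higher on both sides, at 17.4 and 30.6 against 4.30 and 4.41 where gained and at 4.84 and 2.55 against 21.5 and 20.96 where lost. The median log2 difference (pseudocount 1) was 2.503 for gains and -2.52 for losses. The second Daxx-KO library was the higher of its pair at gained sites and the lower at lost sites. Only 11074 gains and 12993 losses had at least 20 normalized counts in both libraries of the higher genotype, 9208 and 8507 of them distal and 1866 and 4486 at promoters.

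**Figure D1:**
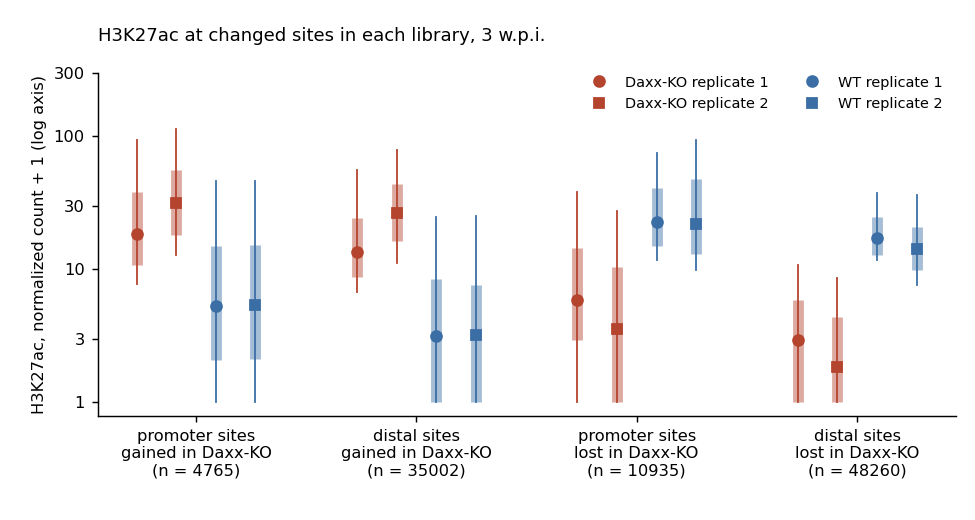
H3K27ac in each library at gained and lost promoter and distal sites at 3 w.p.i. (y axis, normalized count + 1, log scale); markers are medians, thick bars the middle 50% of sites and thin lines the 10th to 90th percentile. The typical distal gain goes from a median near 2.2 in WT to 12.6 and 25.5 in Daxx-KO, and the typical distal loss from 16.1 and 13.2 in WT to 1.94 and 0.85.

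The gains and losses were recounted under other scales of the libraries. When the values were scaled again to equal sums over the listed sites, 40510 gains and 58837 losses were found. When they were scaled so that the median ratio of a site to the mean of the libraries was equal, the Daxx-KO values moved up by 1.48 on the log2 scale relative to WT. The split became 42985 gains and 42839 losses, and 1249 lost sites turned into gains. Most listed sites were losses, so this scaling is centred on a lost site and draws the split towards even by construction. It cannot decide whether losses exceeded gains, and the calls that it moves are given as a description. Among the promoter losses named below, the genotypes overlapped under this scaling at Daxx, all 3 Tal1 sites, Lmo2, Egr1, 2 Gata2 sites and Cebpb. They also overlapped at Prtn3, the higher Ermap site, Klf1, Epor, Ikzf1, Jun, Nfkbia and the highest Mx1 site. The others were Cbx3, H3f3b, Kmt2a, the named Kmt2d site, Ldha, Slc2a3 and Vcam1. Losses that turned into gains under it lay among others at sites of Runx1, Klf6, Car1, Hbb-bs, Hdc, Ermap, Cd3d, Tcf3 and Fos.

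The share of gains fell with GC content, but the GC contents of gains and losses overlapped widely. The quartiles were 41.7% and 47.9% for gains and 43.5% and 50.0% for losses. The median GC content was 44.8% over gains and 46.6% over losses, and at promoter sites the medians were 46.1% and 49.2%. The share of gains among changed distal sites went from 68.2% below 35% GC to 24.1% between 55% and 60%, and at promoter sites from 56.9% below 35% GC to 6.92% at 60% or more. The second library of each genotype lay at the extremes of GC content in these directions, and their part in this gradient was not tested. With the libraries set to equal sums within classes of GC content, 39754 sites were gained and 58098 lost, of which 39057 and 58022 had been gained and lost before, and 71 losses turned into gains.

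**Figure D2:**
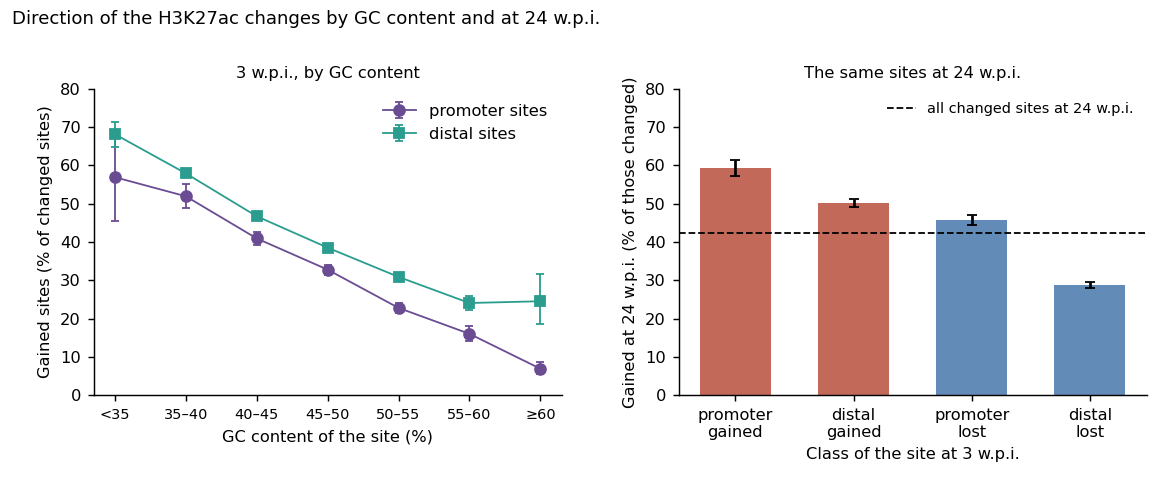
Left, share of gains among changed H3K27ac sites at 3 w.p.i. (y axis, %) by GC content of the site (x axis, %), with 95% Wilson intervals; it falls from 68.2% to 24.1% at distal sites and from 56.9% to 6.92% at promoter sites. Right, share of gains at 24 w.p.i. among sites of each class that also changed then (bars, %, 95% Wilson intervals), with a dashed line at the 42.5% of all changed sites of that time; distal losses lie lowest at 28.8%.

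The distal sites with the clearest separation had no read or almost none in one genotype, and ranking by the gap favours such sites. In libraries this shallow, the lack of a read does not show that the mark was absent. In an intron of Pam, which encodes an enzyme that amidates peptides, a site reached 29.1 and 28.9 in Daxx-KO with no read in WT, at least 17.7-fold. The fold is a bound, set by the floor of 3 reads over a group. A site 555572 bases from Bcl11a, a zinc-finger repressor of lymphoid and erythroid cells, stood at 27.1 and 55.2 against no read, at least 25.2-fold. The top-ranked distal gain had 31.0 and 28.9 against no read and lay 466042 bases from Amd2, and 76.1% of its bases were masked as repeats. Among the losses, a site 17612 bases from Ctsb, which encodes the lysosomal protease cathepsin B, was at 34.4 and 55.2 in WT and had no read in Daxx-KO, at least 32.97-fold. A site in Zbtb46, a transcription factor of classical dendritic cells, had none in Daxx-KO and 37.6 and 29.8 in WT, at least 24.8-fold. A site near Unc93a had 0 and 1.70 in Daxx-KO against 98.9 and 76.1, a ratio of 103 (95% counting interval 26.4 to 806). All 12 named distal gains and 11 of the 12 named distal losses had a group without any read. At 24 w.p.i. 2 of these gains and 4 of these losses, among them the sites near Ctsb and Unc93a, had a listed site of the same direction.

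Promoter sites of the same rank came from unrelated genes. The clearest loss was at Rcan1, an inhibitor of the phosphatase calcineurin, where WT had 34.4 and 28.7 and Daxx-KO no read, at least 23.2-fold, and it was lost at 24 w.p.i. too. Camk1d, a calcium- and calmodulin-dependent kinase, was at 0.97 and 0.85 against 43.0 and 68.4, a ratio of 61.2 (16.5 to 513). The promoter site of Jup, the junction protein plakoglobin, was at 0 and 1.70 against 55.9 and 99.3, a ratio of 91.3 (23.2 to 712). Further losses of this rank lay at Itgb2, the beta chain of the leukocyte integrins, with 0 and 0.85 against 23.6 and 48.5, and at the scavenger receptor Cd36, with 0 and 1.70 against 30.1 and 28.7. Among the gains, Adgra3, an adhesion G-protein-coupled receptor, was at 33.9 and 23.8 against 0 and 1.10, a ratio of 52.5 (9.07 to 2102). Taf3, a subunit of the general factor TFIID, was at 28.1 and 22.1 against 1.07 and 2.21. The highest of these gains was at the olfactory receptor gene Olfr1499, with 58.1 and 98.5 against 4.30 and 4.41, and a gain was listed there at 24 w.p.i. as well.

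Some genes had many more changed sites of one direction than of the other. Of all changed sites 40.2% were gains and 59.8% losses. The counts also depend on how much of the genome lies nearest to a gene, which was not taken into account. By nearest protein-coding TSS, the genes with the largest net gain were Zfp386 (67 gained, 19 lost), Msrb3 (36 and 4), Runx2 (38 and 11), Adgrl4 (41 and 15) and Vav3 (37 and 11), followed by Bcl2l11, Etv6, Pde4b, Retreg1 and Arhgap32. Vav3 encodes a guanine nucleotide exchange factor of haematopoietic signalling and Bcl2l11 the pro-apoptotic protein Bim. The largest net losses were at Myc (14 gained, 68 lost), Adgrl2 (42 and 89), Ets1 (10 and 48), Clasp1 (6 and 43) and Kcnh1 (9 and 45), followed by Svil, Trib2, Mad1l1, Camk1g and Id2. Of the first 5, Adgrl2 had many sites of both directions and lay closest to the share over all changed sites. Myc drives growth and proliferation, Ets1 is a lymphoid ETS factor and Id2 an inhibitor of E proteins.

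Zfp386 neighbours the variable segments of the immunoglobulin heavy chain locus, which rearrange in B-cell development. Between the first and the last of these segments, on chromosome 12 from 113572927 to 116010093, 101 sites were gained and 29 lost. This region was chosen after its values were seen. The gained sites summed to 6484 and 7619 in Daxx-KO and to 2763 and 2679 in WT, with a median log2 difference of 2.02, and 55 of them lay within 1 kb of an annotated start. The variable segments are close copies of one another, so the assignment of reads to single segments is uncertain. Of these gains 25 were again gained at 24 w.p.i. and 8 lost.

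Gains also came in runs, of which only the one at Erg was unbroken. At Erg, an ETS factor that stem cells need, 26 gained sites followed each other over 76.3 kb (chr16:95391101-95467450) with neither a lost nor an overlapping site among them. They summed to 6881 and 7546 in Daxx-KO and to 3457 and 3145 in WT, with a median log2 difference of 1.15 and a range from 0.70 to 2.30. At 24 w.p.i. 22 of the 26 had a gained site, none a lost one alone. The same gene also held losses on both sides of the run, so that 27 gains and 9 losses lay in it and in the 60 kb around it. Longer runs lay in Etv6 and Runx2. Etv6, an ETS-family repressor of transcription that stem cells need to survive, held 42 gains and 6 losses over 188 kb. Runx2, a Runt-family factor best known from bone, held 34 gains and 3 losses over 116 kb. A run between Haao and Zfp36l2, which encodes an RNA-binding protein of progenitor cells, held 26 gains and 2 losses, and one at Adgrg1, the stem cell receptor Gpr56, held 24 gains and 1 loss. At 24 w.p.i. gains outnumbered losses in each, by 20 to 6 at Etv6, 16 to 4 at Runx2, 17 to 3 at Zfp36l2 and 15 to 2 at Adgrg1.

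The longest runs of losses had far lower counts. Beyond Myc, from 93.6 to 206 kb downstream of its start (chr15:62079001-62191100), 29 lost and 3 gained sites lay over 112 kb. The lost sites summed to 247 and 161 in Daxx-KO and to 901 and 962 in WT, with a median log2 difference of -2.08. The strongest distal one was at 29.1 and 14.4 against 67.7 and 122. At 24 w.p.i. 14 of the 29 had a lost site and 4 a gained one. Similar runs lay over Agpat4 and Map3k4 (35 losses, 5 gains), Mtss1 (28 and 1), Clasp1 (27 and 3) and Acsl1 (26 and 7). At 24 w.p.i. losses were the more frequent in each of these, by 18 to 3 at Agpat4 and Map3k4, 10 to 2 at Mtss1, 9 to 0 at Clasp1 and 7 to 4 at Acsl1.

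**Figure D3:**
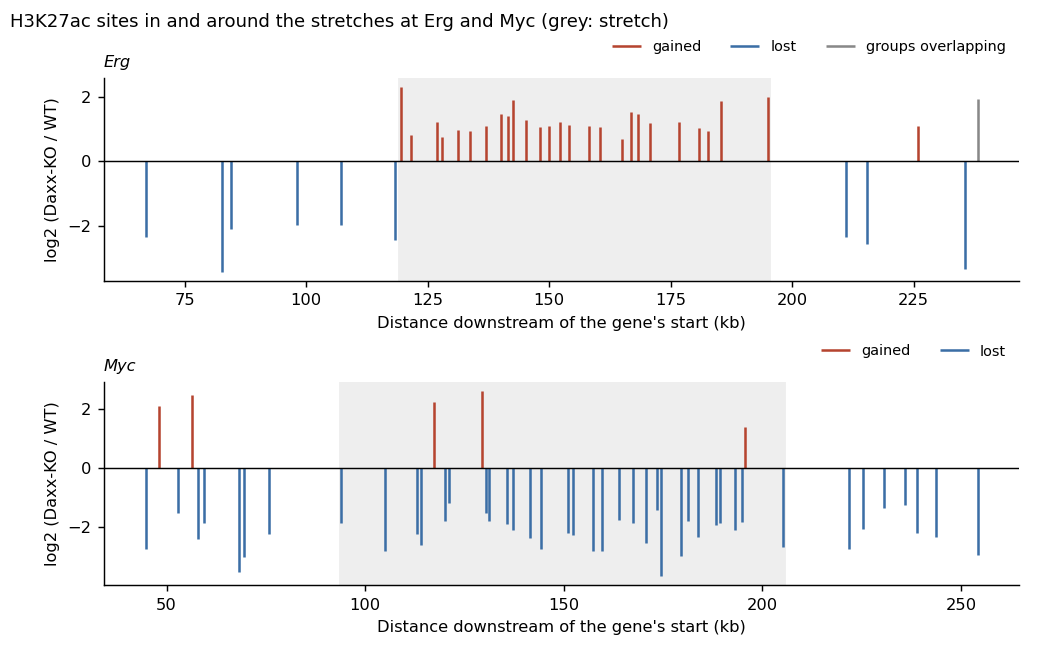
log2 difference of H3K27ac (Daxx-KO over WT, pseudocount 1) at every listed site in and within 60 kb of the runs at Erg and Myc, by distance downstream of the first annotated start of the gene (kb); grey bands mark the runs. The Erg run holds 26 gains and no loss, with losses on either side, and the Myc run holds 29 losses and 3 gains.

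Changes at the genes of blood lineages were read from gene lists and set beside all 20780 autosomal protein-coding genes, of which 13.4% had a gained promoter site and 31.6% a lost one. Of all changed sites, each counted at its nearest gene, 40.2% were gains. Across all lists, 86 members had a gained and 142 a lost promoter site. Because the lists had been drawn up with results of these data known, their counts are given as a description. The promoter sites named below are those of the highest level in each list and some further members, chosen after their values were seen.

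Regulators of stem and progenitor cells gained promoter acetylation more often than they lost it. Of 35 members 16 (45.7%) had a gained promoter site and 8 (22.9%) a lost one, and 392 of the sites nearest to members were gained and 352 lost. The highest gain was at Cd34, the sialomucin used to define progenitors, at 519 and 331 against 155 and 193, a ratio of 2.45 (2.12 to 2.75). Its own promoter sequence is the first one printed. The promoters of Nfe2, a bZIP factor of megakaryocytes and erythroid cells, and Erg followed, at 202 and 256 against 133 and 118 and at 174 and 197 against 124 and 98.2. Smaller gains lay at Hlf, a bZIP factor of stem cells, with 61.1 and 45.02 against 20.4 and 24.3, at the homeobox gene Hoxa9, with 32.95 and 75.6 against 19.3 and 6.62, and at 4 promoter sites of Myb. A gain was listed at 24 w.p.i. at Cd34, Nfe2, Erg, Hlf and Hoxa9.

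Losses in the same list fell on other regulators. Tal1, which builds complexes with GATA factors in erythroid and stem cells, lost 3 promoter sites, the highest at 42.6 and 4.25 against 80.6 and 78.3, and all 3 were lost at 24 w.p.i. The promoter of Lmo2, a partner of Tal1, was lost at its stronger site, at 85.3 and 60.3 against 205 and 127, and gained at another, at 71.7 and 117 against 41.9 and 18.8. Gata2 had 3 lost promoter sites, the highest at 42.6 and 22.1 against 55.9 and 113 with a GC content of 61.1%, and gains at 24 w.p.i. With equal sums within GC classes 1 of the 3 Tal1 sites, 2 of the 3 Gata2 sites and the early-response gene Egr1 (73.6 and 51.8 against 117 and 221) no longer separated the genotypes. Under the median-ratio scaling 18 members had a gained and 2 a lost promoter site. The stronger Runx1 site (107 and 114 against 168 and 179), at a Runt-family factor, turned into a gain under that scaling. At Kit, the receptor by which the cells were sorted, 19 sites were gained and 21 lost. Its promoter site at chr5:75574351-75574950 overlapped between the genotypes, at 7.75 and 7.65 against 6.45 and 50.75. The 2 gained promoter sites of Kit lay at another annotated start farther along the gene. They were at 6.78 and 22.9 against no read and at 6.78 and 49.3 against 6.45 and 5.52.

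Neutrophil granule genes also gained, beginning with those of the primary granules, which are made early in the lineage. Of 24 members 9 (37.5%) had a gained promoter site and 4 (16.7%) a lost one. The protease cathepsin G (Ctsg) was at 453 and 360 against 216 and 209, a ratio of 1.91 (1.68 to 2.15), neutrophil elastase (Elane) at 298 and 180 against 78.4 and 97.1, a ratio of 2.73 (2.25 to 3.23), and myeloperoxidase (Mpo) at 187 and 223 against 112 and 131. With equal sums within GC classes Ctsg no longer separated the genotypes. The later granule genes Camp, the antimicrobial peptide cathelicidin, and Ltf, lactoferrin, were lower in level and larger in ratio, at 64.9 and 60.3 against 17.2 and 13.2 and at 28.1 and 37.4 against 3.22 and 6.62. These 5 promoters had gained sites at 24 w.p.i. Losses included Mmp9, Itgb2l and 1 of the 4 sites of Prtn3, of which the other 3 were gained.

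The genes that define mature neutrophils were mostly not among these. Of the 7 markers Ltf, Camp, Ngp, S100a8, S100a9, Mmp8 and Ly6g, 2 had a listed promoter site, and the 2 summed to 93.02 and 97.7 in Daxx-KO and to 20.4 and 19.9 in WT. The other 5 had no listed promoter site, which gives no value for them, so the part of mature neutrophils left in the cell preparations was not tested. All 6 HSPC markers had listed promoter sites. As a site is listed only where the authors' test found a difference, this does not show which cells were present. Of the 4 stromal and endothelial markers only Cdh5 had one, at 1.94 and 0 against 18.3 and 11.0.

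Receptors and regulators of myeloid cells were divided. Of 29 members 11 had a gained and 13 a lost promoter site, and 12 and 6 under the median-ratio scaling. Gains included Cd33, a sialic acid-binding receptor, at 247 and 170 against 127 and 138, the chemokine receptor Ccr2 at 103 and 212 against 93.5 and 70.6, and the Fc receptor Fcgr3 at 72.7 and 142 against 40.8 and 43.0. The receptor for G-CSF, Csf3r, had 3 gained promoter sites, the highest at 83.3 and 67.1 against 21.5 and 24.3, and Cebpe and Gfi1, transcription factors of granulocyte maturation, each had 1, at 51.4 and 57.8 against 14.0 and 28.7 and at 60.1 and 44.2 against 18.3 and 14.3. Klf6, a zinc-finger factor of monocytes, was lower, at 75.6 and 92.6 against 188 and 125, but turned into a gain under the median-ratio scaling. At Cebpb (29.1 and 10.2 against 40.8 and 125, 77.2% GC) the genotypes overlapped with equal sums within GC classes.

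Spi1, which encodes Pu.1, the master regulator of myeloid cells, had 6 nearest sites, 5 gained and 1 lost, all in introns of annotated genes. The strongest (chr2:91084651-91086450) was at 386 and 325 against 153 and 159, a ratio of 2.28 (1.98 to 2.61). The next was at 146 and 184 against 87.0 and 86.1. Another was at 140 and 72.2 against 26.9 and 47.4. These 3 sites were gained at 24 w.p.i. The lost site was weak, with no read in Daxx-KO and 11.8 and 9.93 in WT.

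Erythroid, megakaryocyte and mast-cell genes moved the other way. Of 32 members 3 (9.38%) had a gained promoter site and 18 (56.2%) a lost one, and of the sites nearest to members 54 were gained and 139 lost, so that 28.0% were gains against 40.2% of all changed sites. Rhag, the Rh-associated glycoprotein of the red cell membrane, was at 15.5 and 16.1 in Daxx-KO against 157 and 68.4 in WT, a ratio of 7.12 (4.98 to 10.5). Its printed promoter lies inside this site. The anion exchanger Slc4a1 (band 3) was at 5.81 and 4.25 against 41.9 and 51.9, and the alpha-globin genes Hba-a1 and Hba-a2 were at 6.78 and 3.40 against 23.6 and 23.2 and at 12.6 and 0 against 40.8 and 44.1. The membrane protein gene Ermap was at 48.4 and 73.9 against 221 and 131 at the higher of 2 lost promoter sites, and had a weaker gained one, at 13.6 and 17.0 against 1.07 and 3.31. Slc4a1, both alpha-globin genes and Ermap were lost at 24 w.p.i. too.

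Some erythroid losses were less secure, and some genes did not follow. With equal sums within GC classes 16 members had a lost promoter site, but the erythroid factor Klf1, at 24.2 and 18.7 against 24.7 and 104, and the stronger of 2 lost sites at the erythropoietin receptor Epor, at 20.4 and 10.2 against 25.8 and 99.3, no longer separated the genotypes. Under the median-ratio scaling 11 members had a lost and 7 a gained promoter site, and 1 of 2 lost sites of the carbonic anhydrase gene Car1, 1 of 2 of Ermap and the site of the beta-globin gene Hbb-bs turned into gains. The adjacent beta-globin gene Hbb-bt was gained under each scaling, at 165 and 157 against 98.9 and 84.95, and lost at 24 w.p.i. As Hbb-bs and Hbb-bt are close copies, the split of reads between them is uncertain, as it is for both alpha-globin genes. Hdc, the histidine decarboxylase of mast cells and basophils, had 2 gained promoter sites and a lost one, which turned into a gain under the median-ratio scaling.

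**Figure D4:**
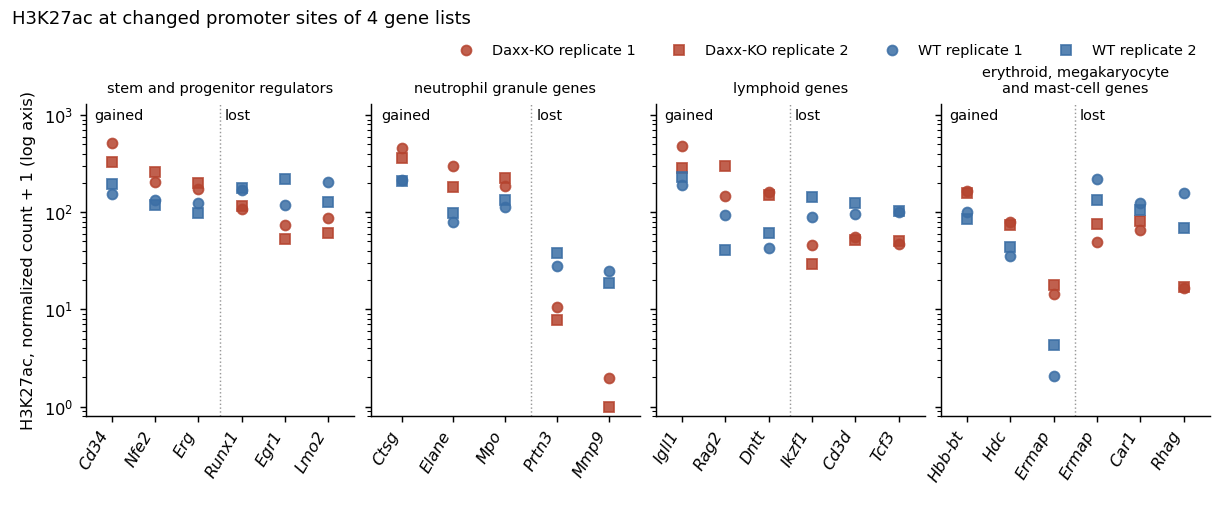
H3K27ac in each library (y axis, normalized count + 1, log scale) at up to 3 gained and 3 lost promoter sites of high level in each of 4 gene lists; circles are first and squares second replicates. At Cd34 the Daxx-KO values are 519 and 331 against 155 and 193 in WT, and at Rhag the WT libraries stand at 157 and 68.4 against 15.5 and 16.1.

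Lymphoid genes changed in both directions. Of 41 members 9 (22.0%) had a gained and 21 (51.2%) a lost promoter site, while 227 sites nearest to members were gained and 224 lost. Gains were at Dntt, the terminal transferase of early lymphoid progenitors (161 and 151 against 41.9 and 60.7, a ratio of 3.04, 2.42 to 3.86), at the recombinase gene Rag2 (144 and 296 against 92.4 and 39.7) and at Igll1, a part of the surrogate light chain (479 and 284 against 188 and 229). The receptor Flt3 of multipotent and lymphoid progenitors was at 59.1 and 36.5 against 8.60 and 13.2, and these 4 genes were gained at 24 w.p.i. Tcf7, an early T-cell factor, was at 3.88 and 0.85 against 36.5 and 32.0, a ratio of 14.5, and lost at 24 w.p.i. too. Ikzf1 (Ikaros) and the T-cell receptor gene Cd3d were at 45.5 and 28.0 against 89.2 and 141 and at 55.2 and 51.0 against 95.6 and 125. The E protein gene Tcf3 was at 46.5 and 49.3 against 99.9 and 102, and under the median-ratio scaling the Tcf3 site and 1 of the 4 Cd3d sites turned into gains. Cd3d was the only one of 4 T-cell markers with listed promoter sites, and its 4 sites summed to 64.0 and 56.1 against 196 and 160. Among the 4 B-cell markers, Ms4a1 had a gained and Pax5 a lost promoter site.

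Inflammatory genes had both gains and losses, 12 (25.5%) of 47 members with a gained and 19 (40.4%) with a lost promoter site. The balance turned under the median-ratio scaling, to 15 with a gained and 8 with a lost one. Nfkb1, a subunit of NF-kB, was at 714 and 788 against 607 and 460, a ratio of 1.41, the inflammasome sensor gene Nlrp3 at 501 and 607 against 309 and 364, and the chemokine gene Ccl3 at 110 and 223 against 94.6 and 79.4. The AP-1 genes Jun and Fos were lower, at 158 and 74.8 against 212 and 494 and at 84.3 and 56.1 against 132 and 145. Nfkbia, the NF-kB inhibitor, was at 69.8 and 46.7 against 92.4 and 143. With equal sums within GC classes Jun and Nfkbia overlapped between genotypes, and 1 of 2 lost Fos sites turned into a gain under the median-ratio scaling. Mx1, an interferon-response gene, lost 3 promoter sites, the highest at 21.3 and 18.7 against 52.7 and 79.4.

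In the deposited values, genes of chromatin regulators had lost promoter sites more often than gained ones. The same held for all autosomal protein-coding genes, of which 31.6% had a lost and 13.4% a gained promoter site. Of 32 genes of H3.3 deposition, H3K9 methylation and repeat silencing 20 (62.5%) had a lost promoter site and 8 (25.0%) a gained one, and of 31 acetyltransferases, readers and deacetylases 19 (61.3%) and 5 (16.1%). The HP1 gene Cbx3 was at 103 and 14.4 against 179 and 221 (66.9% GC), and the H3.3 gene H3f3b at 46.5 and 34.0 against 69.9 and 191. The H3K4 methyltransferase genes Kmt2a and Kmt2d were at 52.3 and 33.1 against 79.5 and 161 and at 66.9 and 44.2 against 69.9 and 181 (69.7% and 70.3% GC). In all 4 the second WT library was the highest. With equal sums within GC classes Cbx3 and Kmt2a no longer separated the genotypes and the named one of 3 lost Kmt2d sites turned into a gain, and 17 members of each list had a lost promoter site. Under the median-ratio scaling 10 members of the first list had a lost and 10 a gained promoter site, and 12 and 7 of the second. Gains were at Dek, an H3.3 chaperone (32.95 and 37.4 against 14.0 and 13.2), and at the corepressor Ncor1 (70.7 and 138 against 60.2 and 44.1).

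**Figure D5:**
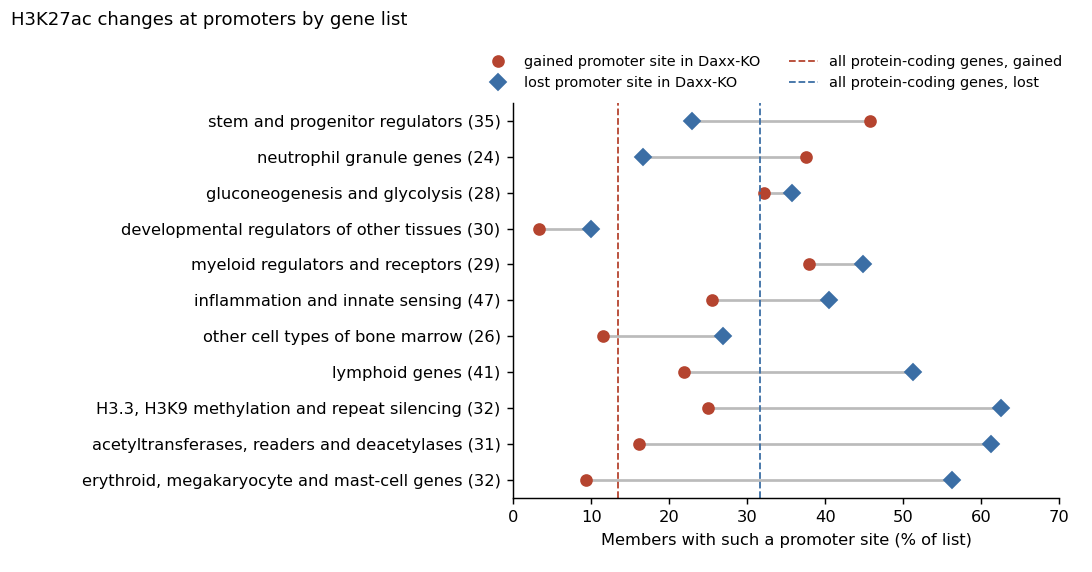
Share of the members of each gene list (number in brackets) with a gained (circles) or lost (diamonds) promoter site in Daxx-KO (x axis, % of list), with dashed lines at the 13.4% and 31.6% of all protein-coding genes. Stem and progenitor regulators and neutrophil granule genes have more gained than lost promoters, 45.7% against 22.9% and 37.5% against 16.7%, and erythroid genes the reverse, 9.38% against 56.2%.

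Among genes of gluconeogenesis and glycolysis the fructose bisphosphatases stood out. Of 28 members 9 (32.1%) had a gained and 10 (35.7%) a lost promoter site, and 9 and 6 under the median-ratio scaling. Fbp1, which encodes the liver-type fructose-1,6-bisphosphatase, a key enzyme of gluconeogenesis, had 8 gained and 2 lost nearest sites. Its promoter site (chr13:62886501-62888100) was at 93.99 and 121 against 8.60 and 20.96, a ratio of 7.29 (4.95 to 11.5), and was gained at 24 w.p.i. Its strongest intronic site was at 291 and 246 against 149.4 and 129. All 5 sites nearest to the neighbouring Fbp2, the muscle-type enzyme, were gained, and its promoter site was at 7.75 and 10.2 with no read in WT, at least 5.49-fold. One of the 5, at 100.8 and 17.0 against 16.1 and 15.5, rested on 1 Daxx-KO library and overlapped with the libraries set to equal sums. Hexokinase 3 (Hk3) was gained, at 154 and 144 against 80.6 and 56.3, and pyruvate carboxylase (Pcx) lost, at 36.8 and 10.2 against 153 and 137, as was lactate dehydrogenase A (Ldha), at 92.0 and 71.4 against 152 and 201.

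Ranked instead by the gap between the genotypes, the clearest sites of list members were mostly distal, weak and without a read in one genotype. Among the stem and progenitor regulators, a site 286852 bases from Runx1 was lost (27.9 and 19.9 in WT) and one 161613 bases from Mecom gained (13.6 and 11.9 in Daxx-KO). A site 5077 bases from Ctsg was gained (19.4 and 19.5) and one 6065 bases from Padi4, the enzyme that citrullinates histones in neutrophils, lost (12.9 and 17.6). In the lymphoid list an intronic site 2097 bases from Satb1, a chromatin organiser, was gained (13.6 and 22.9) and the promoter site of Pax5 lost (19.3 and 11.0). A site in Kdm6b, the demethylase of H3K27me3, was lost (29.0 and 20.96), as was one 15780 bases from Mitf, a mast-cell factor (15.0 and 19.9). In each of these the other genotype had no read.

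The last 2 lists were drawn up from genes of other tissues and of other cell types of the marrow. Developmental regulators of other tissues had few promoter sites, 1 gained and 3 lost of 30 members. The gain was at the homeobox gene Lhx2, with 5.81 and 34.0 and no read in WT, and the losses at Pax6, Foxa1 and Nkx2-2 had at most 11.0 in any library. Of the sites nearest to these genes 70 were gained and 39 lost, with a median log2 difference of 2.61. Gains were thus 64.2%, against 40.2% of all changed sites. The levels and GC content of these sites were not examined, and gains were more frequent at distal sites of low GC content in general. Of 26 genes of other cell types of the marrow 3 had a gained and 7 a lost promoter site. Nkg7, a granule gene of natural killer cells, was at 236 and 286 against 182 and 168, and the adhesion molecule gene Vcam1 at 1.94 and 8.50 against 40.8 and 22.1.

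Short words bound by transcription factors were counted on both strands in the central 300 bases of the sites, and beside them in windows 10 kb away. The words were GAGGAAGT for Pu.1, CCGGAAGT for other ETS factors, TGTGGTTT for Runx, AGATAAG for GATA, TTGCNNAA for C/EBP, TGANTCA for AP-1, TGACGTCA for CREB, CACGTG for Myc, GAAANNGAA for IRF, TTCNNNGAA for STAT, GGGCGG as a GC box of the SP and KLF factors and CCACACCC for Klf1. Matches of different words may overlap. At distal sites with at least 20 normalized counts in the higher genotype, the GATA word was in 3.93% of gained and 6.49% of lost centres, against 4.18% and 4.22% at 10 kb. The Klf1 word was in 2.88% and 4.41%, against 2.63% and 2.57%. The C/EBP word was the reverse, in 13.6% of gained and 10.5% of lost centres, against 11.7% and 11.9%. The words for Runx and Pu.1 were more frequent than at 10 kb in gains and losses alike, at 3.79% and 3.04% against 2.52% and 2.41% for Runx and at 3.79% and 3.37% against 2.25% and 2.17% for Pu.1. Among all distal sites with centres of 40 to 50% GC, whatever their counts, the GATA word was in 4.14% of 21436 gained and 5.13% of 29053 lost centres, and the C/EBP word in 13.1% and 11.4%.

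Promoter sites differed chiefly in the GC box, which was in 5.54% of gained and 15.3% of lost centres. This word holds only G and C, and lost promoter sites were richer in GC, at a median of 49.2% against 46.1%. No promoter sites of matched GC content were counted, so the word and base composition cannot be told apart. In RefSeq promoters the GC box was in 36.0% of all 31365, in 48.3% of those of genes with gained sites only and in 60.7% of those of genes with lost sites only. The Pu.1 word was in 3.25% of all, 2.93% and 3.37%. In the printed sequences, the centres of the Elane and Fbp1 promoter sites each hold 1 C/EBP word, and the site of the Myc run holds 1 Pu.1 and 1 STAT word.

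H3K27ac at 24 w.p.i. was measured in 4 other mice of the same genotypes, with deeper libraries and without chromosomes X and Y. Of the 3-week gains 46.3% at promoters and 30.6% at distal sites overlapped a site listed then, and of the losses 56.2% and 34.7%. All changed sites at 24 w.p.i. were gains in 42.5%. Among sites that changed in one direction, the 3-week distal losses were gains at 24 w.p.i. in 28.8% (28.1 to 29.5) of 16037, and the distal gains in 50.2% (49.3 to 51.2) of 10121. For sites with at least 20 normalized counts these shares were 23.3% and 58.9%. At promoters the gap was narrower, with gains at 24 w.p.i. in 59.3% (57.2 to 61.4) of 2047 gained and 45.7% (44.4 to 47.1) of 5596 lost promoter sites.

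Pu.1, H3.3 and H3K9me3 were profiled at 3 w.p.i. in separate libraries, the H3K9me3 ones from the same 4 mice and the Pu.1 and H3.3 ones with 1 WT mouse in common, so these shares are not independent of the H3K27ac comparison. The WT libraries were uneven in depth, with 33.78 and 2.75 mean reads per window for Pu.1 and 22.88 and 3.06 for H3.3. The Daxx-KO libraries had 11.35 and 11.99 for Pu.1 and 9.43 and 11.27 for H3.3. Directions of both marks thus rest in part on a shallow WT library. Among H3K27ac sites that overlapped a Pu.1 site of one direction, Pu.1 was gained at 65.5% of gained and 76.7% of lost promoter sites and at 50.6% of gained and 52.8% of lost distal sites, against 55.2% of all changed Pu.1 sites. The H3.3 shares had the same order, 67.4% and 74.4% at promoters and 54.4% and 55.9% at distal sites, against 58.7%. H3K9me3 sites overlapped 0.979 to 2.39% of the classes of H3K27ac sites. Gains made up 45.9% of the 74 H3K9me3 changes at gained promoter sites and 60.7% of the 107 at lost ones, and 65.7% of 833 and 71.3% of 794 at distal sites, against 78.9% of all changed H3K9me3 sites.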

How the data were processed

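Sites of the H3K27ac comparison at 3 w.p.i. were taken from a table that the authors made with diffReps 1.55.6 on mm10 from CUT&Tag libraries, with windows of 600 bp, steps of 50 bp, fragments of 100 bp and a window p cutoff of 0.0001. The submitters' processing notes name CASAVA 1.8.4, cutadapt 1.13, STAR 2.5.3 and bedtools. The deposited values used here are normalized counts per library, scores in the sense that each is the reads of a site divided by a constant of the library, and all were whole reads within 0.1 when multiplied back. The mean reads per window were 1.33 to 2.26. The authors' columns of fold changes, p-values and window statistics were not used. Of the 15 tables of the series (62 samples), 5 were used, and chromosomes X and Y were left out.

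Direction was called where the libraries of the genotypes did not overlap. The size of a change was log2 of the ratio of group means with a pseudocount of 1, and fold intervals were exact 95% counting intervals. A fold against a group without reads was computed against a floor of 3 reads over the group. A promoter was within 1 kb of a TSS of GENCODE M21. No test was made. Named were the 12 promoter and 12 distal sites per direction with the largest gap between genotypes and at least 20 normalized counts in both higher libraries, the 10 genes per direction with the largest net number of sites, up to 4 members per list and direction by the same gap, Daxx, Spi1, Fbp1, Fbp2 and Kit, and the 5 runs per direction with most sites, joined within 12 kb. Other names were chosen after their values were seen, and a few items that these rules name are not reported here. The genes, lists and sites were chosen with earlier results of these data known. Alternatives were other scalings, thresholds, promoter widths, overlaps and the omission of each library. Scaling within GC classes, and all alternatives for the gene lists except a limit of 100 kb to the nearest TSS, were chosen after seeing the data. Python 3.11.15, numpy 2.4.6, pandas 2.3.3, scipy 1.17.1 and matplotlib 3.10.9 were used. The code was checked on 20287 simulated sites, where 9 of 9 checks passed. How often sites without a difference were called in the libraries themselves was not tested.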

Additional observations from a re-analysis of the deposited data

Results flagged for a closer look

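Sites named for 3 w.p.i. were looked up at 24 w.p.i., where 60 overlapped sites of the same direction, 26 of the opposite direction and 13 of both or of overlapping libraries. In the 26 below every Daxx-KO library moved one way against every WT library at 3 w.p.i. and the other way at 24 w.p.i. The differences between the times were not tested, and the sites at 24 w.p.i. can be far longer than those at 3 w.p.i. Values are log2 differences at 24 w.p.i., Daxx-KO over WT.

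Gains at 3 w.p.i. that were losses at 24 w.p.i. lay at the promoters of Gm47795 (-2.26), Slc37a1 (-0.785), Kat7 (-1.92), Hbb-bt (-1.75), Nlrp3 (-0.265) and Ccr2 (-1.23), at a site near Id2 (-2.08) and at 2 sites of Fbp1 (-1.67 and -1.27). Losses that were gains at 24 w.p.i. lay at the promoters of Hipk2 (1.01), Sp100 (0.315), Cbx3 (0.783), H3f3b (0.747), Kmt2d (0.803), Ldha (0.911), Slc2a3 (1.37), Cd3d (0.819), Cebpb (0.67), Prtn3 (0.622), Runx1 (0.417) and Mmp9 (1.33). Distal losses of this kind were near Prdm16 (1.31), Padi4 (1.33), Fosl2 (1.02), Pfkfb3 (1.32) and Spi1 (1.21). At Padi4 the site at 24 w.p.i. stood at 8537 and 7500 in Daxx-KO against 3404 and 2971 in WT. Under the median-ratio scaling of the 3-week values the losses at Sp100, Runx1 and Cd3d turned into gains, and the genotypes overlapped at the site of Slc2a3.

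Chromosome X was left out of all counts above. Its sites at 3 w.p.i. were gains in 46.8% of those called, 1124 gained and 1280 lost.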

How the results depend on the processing

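Leaving out 1 library or comparing same-numbered libraries can only add calls under the rule of no overlap, so neither bears on stability. Without 1 library there were 39859 to 41806 gains and 59340 to 59869 losses. The counts moved by less than 1.5 times when a 2-fold gap was asked for and when sites were joined. With same-numbered libraries compared as a replicate block there were 40251 gains and 59245 losses, and as the labels do not pair the mice, the block rests on a shared number only. With at least 20 counts in both higher libraries, 11074 gains and 12993 losses were left, with promoter shares of 16.9% and 34.5%, and list members had 90 lost promoters, 646 gained and 427 lost sites against 142, 1528 and 1737. Under the median-ratio scaling, promoters made up 13.2% of gains and 13.9% of losses and 84 list members had a lost promoter. GC classes gave a promoter share of losses of 17.3%. Promoters within 250 bp gave 6.13% and 11.1%, within 3 kb 24.2% and 31.9%, and with protein-coding TSSs only 7.90% and 14.5%. A pseudocount of 5 gave medians of 1.57 and -1.51. With overlaps of 50%, gains at 24 w.p.i. were 52.1% at distal gains, Pu.1 gains 74.7% at promoter losses and 51.6% at distal losses, and H3.3 gains 53.9% at distal losses. With sites within 1 kb, gains at 24 w.p.i. were 42.8% at promoter losses and 47.1% at distal gains, Pu.1 gains 68.5% at promoter gains and 54.5% at distal losses, H3.3 gains 57.9% at distal losses and H3K9me3 gains 69.7% at distal gains. The causes were not tested. With 2 libraries per genotype and few reads per window, weak sites are the least certain.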
